A study of Mus musculus with 12 samples.

Results

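A set of 9 genes of central myelin was followed through 12 spinal cord libraries of mice aged 1 week: Mbp, Mog, Mag, Mobp, Cnp, Mal, Opalin, Ugt8a and Myrf. The genes were taken by gene name from the deposited gene tables, which held all 9 among 38924 genes, and all 9 passed the filter on low counts that left 17995 genes for testing. The mice carried Gars P278KY (6 libraries, heterozygous per the series title) or were wt (6 libraries), with 3 libraries labelled female and 3 labelled male in each genotype. All were on the B6J;CAST background, and whole cord was extracted, 1 library per mouse. Gars is the gene of glycyl-tRNA synthetase, which loads glycine onto its tRNA, and dominant mutations in it cause a peripheral neuropathy of the Charcot-Marie-Tooth family. The series title places the age before the onset of disease. Each library goes by its labelled sex, its genotype and its mouse number.

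Myelin of the spinal cord is made by oligodendrocytes, which wrap axons with a membrane rich in galactolipids and in a small set of abundant proteins. Precursor cells leave the cycle, pass through a premyelinating stage and then switch on the myelin genes, a step driven by the transcription factors Sox10 and Myrf. In the mouse cord this wave of myelination runs through the early weeks after birth. Mbp, Mag, Cnp, Mal and Ugt8a are also used by Schwann cells, the myelinating cells of the nerve roots, whereas Mog, Mobp and Opalin mark oligodendrocytes. Whole cord RNA cannot tell fewer cells of a type from less RNA per cell.

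Library totals ran from 27713981 to 32421525 expected counts in P278KY and from 28701414 to 43219891 in wt. The library labelled female wt 14 held 0.533 CPM of Xist and 45.1 CPM of Ddx3y, and the library labelled male wt 19 held 860 CPM of Xist and 0.0233 CPM of Ddx3y, so the sex marks of both go against their labels. Labels were kept, and the genotype, interaction and length fits were also run without both libraries. Gars itself averaged 131 ± 7.36 CPM in P278KY and 124.5 ± 6.74 CPM in wt (SD, n = 6 each; p = 0.132 by an exact permutation test, two-sided). The oligodendrocyte markers Mog and Mobp were present in all 12 libraries, with Mog at 121 TPM or more and Mobp at 835 TPM or more.

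By Ensembl identifier, and on the GRCm38 build with GENCODE M21 (the sources used here do not give the authors' own build or annotation), the genes lie mostly apart. Mog is on chromosome 17 (37010743 to 37023398, minus strand), Mag on chromosome 7 (30899176 to 30914873, minus), Mobp on chromosome 9 (120149707 to 120181484, plus) and Cnp on chromosome 11 (100574904 to 100591729, plus). Mal is on chromosome 2 (127633226 to 127656695, minus) and Ugt8a on chromosome 3 (125865271 to 125938619, minus). Opalin (41061710 to 41077113, minus) and Myrf (10208272 to 10240748, minus) share chromosome 19. On the opposite strand, Cnp shares 8912 bp with Dnajc7, Mbp 483 bp with the pseudogene Rpl21-ps8 and Mog 248 bp with Gm22388, and the sources used here do not say whether counting used strand. Mobp shares 2447 bp with the transcript Gm38642 on its own strand, where strand cannot separate them. Part of the counts of these genes may therefore belong to the partner.

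The promoters of these genes were read for letters like those bound by SOX factors and by MYRF. Most of the genes moved together from library to library, as described below, and whether these factors have a part in that was not tested. The search used 9 promoter entries for 7 of the 9 genes, from RefSeq on GRCm38.p6. Mbp was left out of the results of the search, and Myrf had no usable entry. The 250 bases before the start were searched on both strands for ACAANG and CTGGNAC, where N is any base. These loose patterns are called the SOX core and the MYRF core here. Since N takes any base, some matches may hold a base that the factor does not bind. Of 32851 promoters of the same length, 36.3% held the SOX core and 16.1% the MYRF core. The SOX core occurred in 5 of the 7 genes and the MYRF core in 3, counting a gene if any of its entries held the core. The shares over all promoters are per entry, so the 2 are not counted alike. Mobp held 6 SOX matches, a number reached by 0.015% of all promoters, and no MYRF match. Mog held 1 of each, and Cnp 1 SOX and 2 MYRF matches. Mag had 3 entries: the 2 upstream ones overlap and held 2 of each, of which 1 is shown, and the other held 1 SOX match and no MYRF match. Mal and Ugt8a held neither, and Opalin held 1 SOX match alone. The promoters of the 4 genes with the most matches are shown 5′ to 3′ on the gene's strand, with the matches in capitals, from chr9:120149492-120149741 (plus), chr11:100574689-100574938 (plus), chr7:30914864-30915113 (minus) and chr17:37023399-37023648 (minus).
Mobp: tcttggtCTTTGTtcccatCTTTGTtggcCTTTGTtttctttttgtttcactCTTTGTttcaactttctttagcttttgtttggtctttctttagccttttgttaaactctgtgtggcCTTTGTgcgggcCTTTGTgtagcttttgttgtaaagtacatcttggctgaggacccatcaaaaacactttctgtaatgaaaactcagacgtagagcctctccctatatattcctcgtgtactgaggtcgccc
Cnp: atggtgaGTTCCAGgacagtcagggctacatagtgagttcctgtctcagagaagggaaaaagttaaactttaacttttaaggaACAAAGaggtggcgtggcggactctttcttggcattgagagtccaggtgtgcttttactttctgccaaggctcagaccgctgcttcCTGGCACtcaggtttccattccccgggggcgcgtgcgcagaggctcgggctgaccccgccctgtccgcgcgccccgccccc
Mag: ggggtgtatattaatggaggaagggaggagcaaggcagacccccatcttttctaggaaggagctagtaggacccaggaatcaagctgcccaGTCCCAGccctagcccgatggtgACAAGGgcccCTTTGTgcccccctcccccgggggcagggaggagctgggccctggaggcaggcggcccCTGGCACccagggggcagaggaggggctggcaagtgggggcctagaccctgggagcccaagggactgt
Mog: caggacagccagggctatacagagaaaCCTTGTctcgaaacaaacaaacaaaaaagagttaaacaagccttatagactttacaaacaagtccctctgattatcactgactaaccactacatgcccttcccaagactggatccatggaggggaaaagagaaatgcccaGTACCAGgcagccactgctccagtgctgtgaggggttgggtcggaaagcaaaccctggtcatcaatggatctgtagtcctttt
A match is a run of letters and not a measured binding site.

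The genotype comparison asked whether the P278KY cord already differed in its myelin transcripts before disease onset. None of the 9 genes passed the test: their log2 fold changes lay between -0.02 (Mbp) and 0.20 (Ugt8a), and 8 of 9 were fitted higher in P278KY. That count rested on single libraries: it was 3 without male P278KY 5, 4 without female P278KY 7, female wt 2 or male wt 6, and 7 to 9 with any other library left out. The median was 0.07, beside -0.01 over all 17995 genes tested, of which 46.9% were fitted higher. In edgeR 0 of 9 members were called, against 1 of all genes tested (0.00556%, Fgf21). An unadjusted p under 0.05 was reached by 0 members, against 736 of the 17995 genes tested, and the smallest among the members was 0.226. DESeq2 called 33 genes over the whole table and none of the 9. The levels of all 9 overlapped between genotypes. The share of all genes that overlap was not counted, so this describes the 9 alone.

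**Figure D1:**
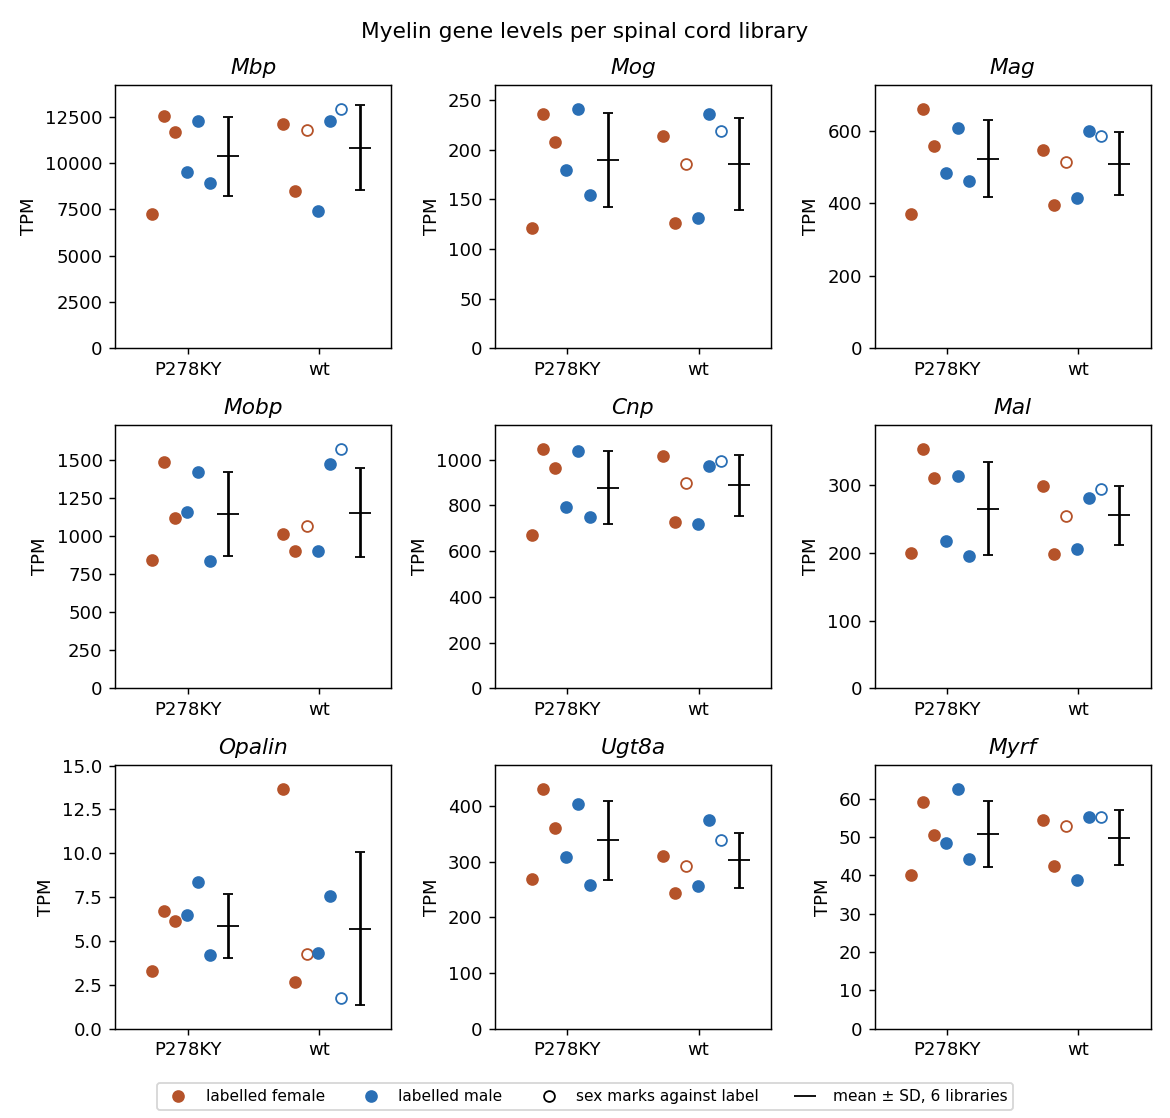
TPM of each of the 9 genes (vertical axes from 0, a panel per gene) in the 6 P278KY and 6 wt libraries. Colours give the labelled sex, hollow points are the 2 wt libraries whose sex marks go against their labels, and bars are the mean ± SD. The groups overlap in every panel, and the wide spread within each genotype is shared by most genes.

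Mbp, the basic protein that seals the cytoplasmic faces of compact myelin, was the most abundant. It stood at 7255, 12539 and 11662 TPM in female P278KY 4, 7 and 10 and at 9515, 12275 and 8896 TPM in male P278KY 3, 5 and 13. In the wt libraries labelled female 1, 2 and 14 it stood at 12104, 8505 and 11775 TPM, and in those labelled male 6, 9 and 19 at 7427, 12264 and 12921 TPM. The low libraries were thus female P278KY 4 and male P278KY 13 among P278KY and male wt 6 and female wt 2 among wt, and the groups overlapped. Mbp averaged 10357 ± 2126 TPM in P278KY and 10833 ± 2277 TPM in wt (SD, n = 6 each). The fold was 0.986 (95% interval 0.753 to 1.29; log2 fold change -0.02 ± 0.18 SE; edgeR adjusted p = 1.00). Without the 2 libraries of discordant sex marks the log2 fold change of Mbp was 0.09.

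Mobp, another small basic protein of compact central myelin, ranged from 835 to 1485 TPM in P278KY (median 1138) and from 899 to 1571 TPM in wt (median 1040.05). Its 3 highest libraries were the library labelled male wt 19, female P278KY 7 and male wt 9. The log2 fold change was 0.04 ± 0.20 (SE; 95% interval -0.40 to 0.47; edgeR adjusted p = 1.00). Mal, a proteolipid that carries raft membrane to the myelin surface, ranged from 196 to 353 TPM in P278KY (median 264) and from 199 to 298 TPM in wt (median 267). In all, 3 P278KY libraries lay above every wt library for Mal, while the lowest value of all was also in P278KY. Its log2 fold change was 0.09 ± 0.18 (SE; 95% interval -0.30 to 0.48; edgeR adjusted p = 1.00).

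Among the glycoproteins of the outer and inner sheath, Mog, displayed on the outermost surface, ranged from 121 to 241 TPM in P278KY (median 194) and from 127 to 236 TPM in wt (median 199.7). The 2 genotypes covered almost the same range. Its log2 fold change was 0.07 ± 0.22 (SE; 95% interval -0.40 to 0.55; edgeR adjusted p = 1.00). Mag, the adhesion protein that faces the axon, ranged from 369.8 to 659.9 TPM in P278KY (median 521) and from 395 to 599.8 TPM in wt (median 529). Its log2 fold change was 0.08 ± 0.15 (SE; 95% interval -0.26 to 0.41; edgeR adjusted p = 1.00), with 2 P278KY libraries above every wt library and the lowest library also P278KY.

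Cnp, the phosphodiesterase that keeps cytoplasmic channels of the sheath open, varied least by its ratio of highest to lowest library, 1.56. It ranged from 670.4 to 1046 TPM in P278KY (median 878) and from 720.3 to 1014 TPM in wt (median 934). Its log2 fold change was 0.02 ± 0.14 (SE; 95% interval -0.28 to 0.32; edgeR adjusted p = 1.00). Myrf, the membrane-bound transcription factor that switches on myelin genes, was read at a far lower level, from 40.1 to 62.5 TPM in P278KY (median 49.4) and from 38.9 to 55.2 TPM in wt (median 53.6). Myrf had a log2 fold change of 0.06 ± 0.13 (SE; 95% interval -0.22 to 0.35; edgeR adjusted p = 1.00), the narrowest interval of the 9.

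Ugt8a, the galactosyltransferase that makes galactocerebroside, had the highest fitted fold change of the 9. It ranged from 259 to 431 TPM in P278KY (median 335) and from 244 to 375 TPM in wt (median 302). Female P278KY 7 and male P278KY 5 lay above every wt library, and the other 4 P278KY libraries lay within the wt range. The log2 fold change was 0.20 ± 0.15 (SE; 95% interval -0.14 to 0.54; unadjusted p = 0.226, edgeR adjusted p = 1.00). It kept its sign under every other setting and with each library left out.

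Opalin, a sialylated membrane glycoprotein of oligodendrocytes, stood apart in level and in spread. Its values were 3.30, 6.69 and 6.13 TPM in female P278KY 4, 7 and 10 and 6.45, 8.34 and 4.20 TPM in male P278KY 3, 5 and 13. In the wt libraries labelled female 1, 2 and 14 they were 13.7, 2.66 and 4.23 TPM, and in those labelled male 6, 9 and 19 they were 4.33, 7.59 and 1.75 TPM. The highest and the lowest library were both wt, 7.81-fold apart, and the P278KY values lay between them. The log2 fold change was 0.11 ± 0.46 (SE; 95% interval -0.89 to 1.12; edgeR adjusted p = 1.00). It was 0.58 without female wt 1, -0.10 without the library labelled male wt 19 and -0.21 without both libraries of discordant sex marks.

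Summed, the 9 genes took 0.978% to 1.68% of all TPM in P278KY libraries and 1.01% to 1.70% in wt libraries. Mbp alone made 74.2% to 76.7% of that sum in P278KY and 73.5% to 78.3% in wt. Within the sum Ugt8a took 2.47 ± 0.181% in P278KY and 2.16 ± 0.229% in wt (SD, n = 6 each), with 2 P278KY libraries above every wt library and the others overlapping. The shares of the other 8 genes overlapped between genotypes too.

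By labelled sex, the genotype difference in females minus that in males ran from -0.81 ± 0.91 (Opalin) to 0.42 ± 0.39 (Mobp) on the log2 scale (SE). None of the 9 was called by edgeR (smallest adjusted p = 0.736), against 0 of 17995 genes (0%). Over all genes 1967 had an unadjusted p under 0.05, and DESeq2 called 279, none of them among the 9. The 2 libraries with discordant sex marks enter this comparison under their labels. Without them the interaction of Mbp was 0.00037, against 0.11 with them, that of Cnp was -0.0019, against 0.09 with them, and that of the others ran from -0.67 (Opalin) to 0.30 (Ugt8a). Again no member was called.

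The same libraries were high or low for nearly every gene of the group. Across the 12 libraries, the 28 pairs formed by the 8 genes other than Opalin had a Pearson r of log2 CPM from 0.82 to 0.99 (median 0.92; Spearman 0.80 to 0.97). Within P278KY libraries the 28 values ran from 0.85 to 1.00 and within wt libraries from 0.81 to 1.00. Leaving out the 2 libraries farthest from the median, female P278KY 4 and male wt 6, gave 0.74 to 0.98, and leaving out the libraries of discordant sex marks gave 0.82 to 0.99. These are descriptions over 12 points, and all values of 1 library share its total and its normalization.

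Opalin left the pattern of the others in some wt libraries. Its r with the mean of the other 8 was 0.93 in the 6 P278KY libraries and 0.13 in the 6 wt libraries, and 0.39 over all 12 (Spearman 0.48). A single library decided this value: r was 0.74 without the library labelled male wt 19, where Opalin was lowest while Mbp was highest, and 0.30 to 0.45 with any other library left out. Whether the relation differs between genotypes was not tested.

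**Figure D2:**
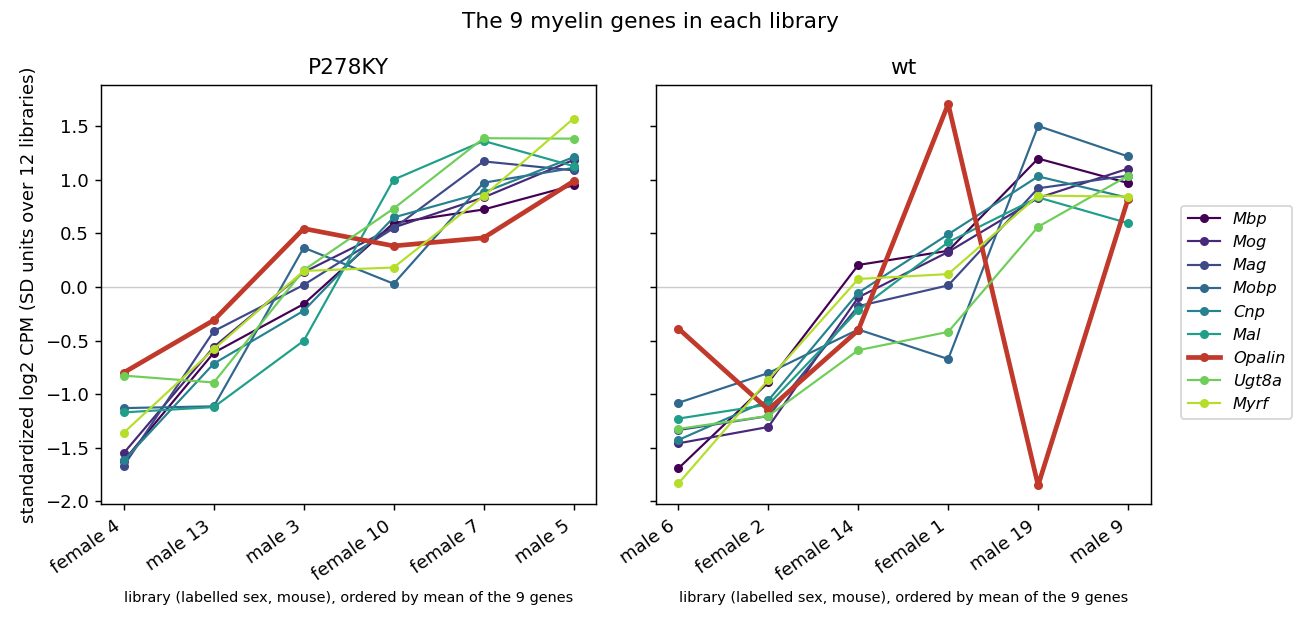
Standardized log2 CPM (in SD over 12 libraries) of the 9 genes in P278KY (left) and wt (right), with libraries ordered by the mean of the 9. The other 8 genes climb together in both genotypes, and Opalin (thick line) leaves them in female wt 1 and in the library labelled male wt 19.

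Since the shared variation widens every interval above, the genotype difference was also fitted with the mean of 23 other myelin protein genes as a further term, a choice made after seeing the data. The standard errors of the 8 genes other than Opalin shrank to between 0.03 and 0.09. Relative to the other myelin genes, Mbp had a log2 fold change of -0.09 ± 0.05 (SE; unadjusted p = 0.0704) and Ugt8a of 0.13 ± 0.06 (SE; unadjusted p = 0.0638), both with an edgeR adjusted p of 0.942. None of the 9 was called, against 1 of 17995 genes (0.00556%). The widest of the other 6 intervals, that of Mobp, ran from -0.24 to 0.15.

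**Figure D3:**
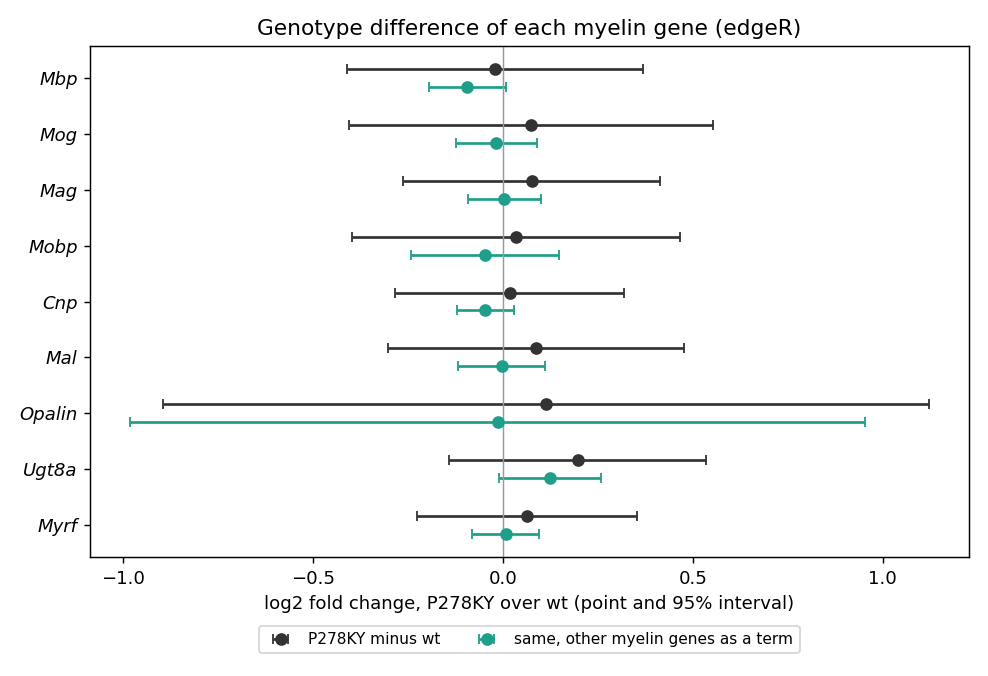
Log2 fold change of P278KY over wt with its 95% interval for each gene, from edgeR (dark) and with the mean of the other myelin protein genes as a further term (green). All intervals include 0, and all narrow with the added term, that of Opalin least.

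The mix of isoforms was read from the length that RSEM gives each gene in each library, a mean over transcripts weighted by their abundance. Mbp, whose golli and classic transcripts make it the most divided gene of the group, had 16 transcripts in the files, and Mag, Opalin, Ugt8a and Myrf had 1 each and so no length to compare. The length of Mbp was 1789 to 1805 bases in P278KY and 1732 to 1811 bases in wt, lowest in the library labelled female wt 14. Its log2 difference was 0.0104 ± 0.0088 (SE; limma adjusted p = 0.972), and it was 0.0034 without that library and 0.0043 without both libraries of discordant sex marks. None of the 5 genes with several transcripts was called, against 1 of 11230 genes (0.0089%), while 609 genes had an unadjusted p under 0.05.

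Other genes of the pathway were read as 5 lists, and 0 genes of any of them passed in edgeR, had an unadjusted p under 0.05 or were called by DESeq2. Over all 17995 genes tested, 736 had an unadjusted p under 0.05 in edgeR. Of 23 other myelin protein genes, 17 were fitted higher in P278KY and 6 lower (median log2 fold change 0.04). The 2 with the smallest p were Cntn2, an adhesion molecule of the juxtaparanode, at -0.13 ± 0.06, and Tspan2, a tetraspanin, at 0.23 ± 0.15 (SE; edgeR adjusted p = 1.00 for both). Of 11 genes that make or degrade galactolipid and sulfatide, 7 were fitted higher and 4 lower (median 0.02), with Arsa, arylsulfatase A, at 0.04 ± 0.05 and Gal3st1, the sulfotransferase that makes sulfatide from the product of Ugt8a, at -0.10 ± 0.13.

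Of 16 transcriptional regulators of maturation found in the files, 11 were fitted higher and 5 lower (median 0.02), with Yy1 at 0.08 ± 0.07 and Zeb2 at 0.07 ± 0.07. Of 14 genes listed under inhibition of maturation, 5 were fitted higher and 9 lower (median -0.04). Id4, which restrains differentiation, was at 0.16 ± 0.08. Apcdd1, a Wnt antagonist listed with them though not itself an inhibitor of maturation, was at -0.07 ± 0.05. Of 11 tested genes listed under transport and splicing of myelin mRNAs, a list that also takes in Sox17 and Mtor, 9 were fitted higher and 2 lower (median 0.04). Hnrnpa1 was at 0.07 ± 0.06 and Qk, the RNA-binding protein lost in quaking mice, at 0.11 ± 0.10. Qk shares its symbol with another row of the files and was identified by its Ensembl number.

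Over 13800 genes with a mean of at least 1 CPM, 91 had an r above 0.9 with the mean of the 9 genes over the 12 libraries, and 11 had an r under -0.9. The most alike was Enpp2, autotaxin (r = 0.99; Spearman 0.98; 0.99 within P278KY and 1.00 within wt). Pla2g4a (0.99), Enpp6 (0.98), Gramd3 (0.98), Map7 (0.97), Tmem125 (0.97), Ppp1r16b (0.97), Nfasc (0.96) and Plekhh1 (0.96) were among those that followed. At the other end stood March4 (-0.94), Dpysl5 (-0.93), Igsf3 (-0.93), Sarm1 (-0.93) and Mmp24 (-0.92). Their r stayed above 0.93 or under -0.90 without the 2 farthest libraries.

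The 13 lineage genes found differed widely in their r with the mean of the 9 genes, and no difference between stages was tested. Enpp6 and Bcas1, which mark premyelinating and newly myelinating cells, had r of 0.98 and 0.95 (0.96 and 0.91 without the 2 farthest libraries). Itpr2, a marker of the same stage, had 0.34 (0.35). Sirt2, which is in this list but is not a marker of that stage alone, had 0.93 (0.90). Bmp4, made by committed precursors, had 0.84 (0.71), Nkx2-2 0.77 (0.65), Gpr17 0.71 (0.64) and Neu4 0.70 (0.56). Among precursor genes C1ql1 had 0.60 (0.24), Tnr 0.33 (0.57), Cspg4 0.17 (-0.48), Pdgfra 0.16 (0.29) and Ptprz1 -0.37 (0.01). The values of Cspg4, Ptprz1 and C1ql1 thus rest on the libraries female P278KY 4 and male wt 6. Pdgfra, the receptor that keeps precursors dividing, held between 50.4 and 58.4 TPM in P278KY and between 50.6 and 55.8 TPM in wt, whereas Enpp6 ranged from 44.1 to 77.6 TPM in P278KY and from 43.5 to 74.3 TPM in wt. The libraries low in Mbp were also low in Enpp6. Of the 13 lineage genes found, 0 were called for genotype by edgeR or DESeq2, with 4 fitted higher and 9 lower. An unadjusted p under 0.05 was reached by 0 of them, against 736 of all 17995 genes tested.

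The 16 regulators had a median r of 0.67, from -0.73 (Hdac2) to 0.95 (Sox8). Tmem98, which regulates the cleavage of Myrf, had 0.88, Nkx6-2 0.87, Tcf7l2 0.84 and Sox10 0.75 (0.52 without the 2 farthest libraries), whereas Hdac1 had 0.22, Zfp488 0.05, Zfp536 0.01 and Nfix -0.04. The 14 genes listed under inhibition of maturation had a median r of 0.10, from -0.76 (Lingo1) to 0.84 (Bmp4), with Daam2 at 0.81, Gpr17 at 0.71 and Notch1 at 0.56. Regulators, inhibitors and lineage genes given here with an r were picked after their values were seen.

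**Figure D4:**
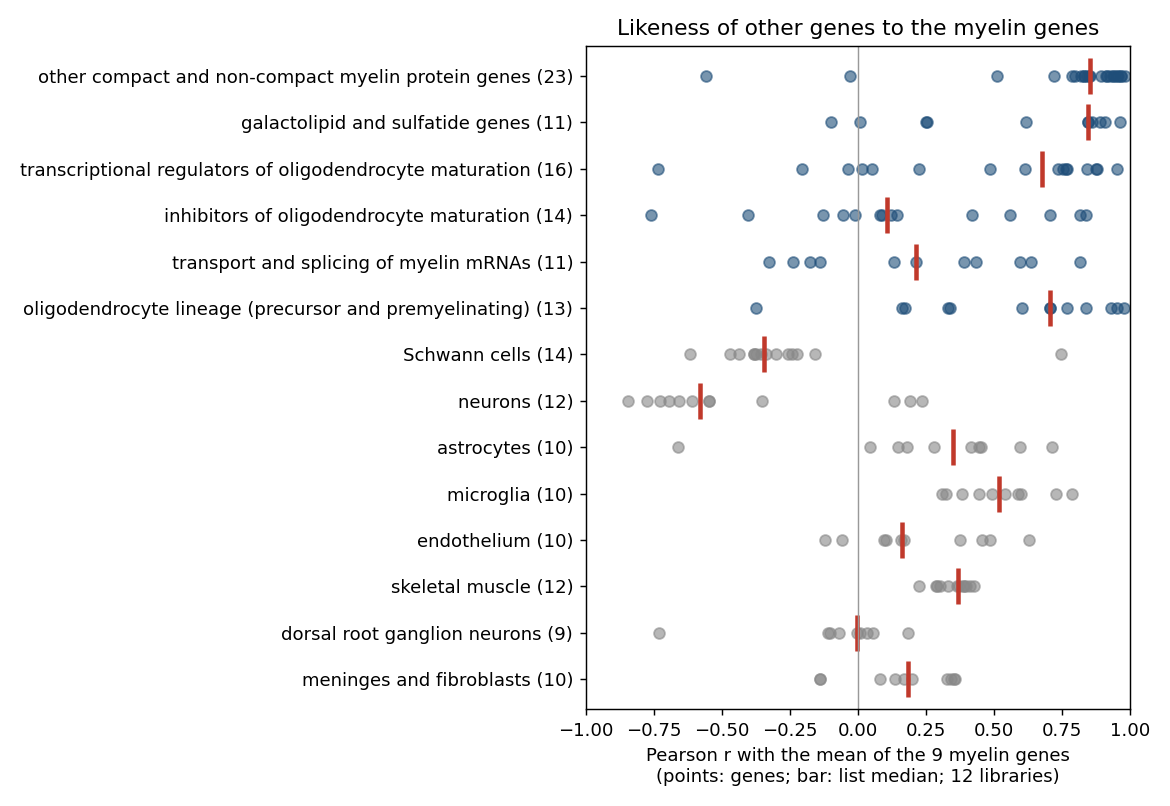
Pearson r of each gene with the mean of the 9 myelin genes over 12 libraries, by list (pathway and lineage lists in blue, marker lists of other cells in grey, red bars for list medians, number of genes in brackets). The other myelin protein genes have a median r of 0.85, and the Schwann cell list of -0.35.

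Markers of other tissues varied between libraries. The 14 Schwann cell genes summed to 107 to 2635 TPM in P278KY (median 1287) and 315 to 3538.5 TPM in wt (median 2897), 13 of 14 were fitted lower in P278KY (median log2 fold change -0.80), and 0 were called. None of the 14 was at 0 in any library. The sum did not order the libraries as Mbp did: it was 107 TPM in male P278KY 3, where Mbp was 9515 TPM, and 315 TPM in male wt 9, where Mbp was 12264 TPM. It was 3538.5 TPM in male wt 6, where Mbp was lowest among wt libraries. With the Schwann cell list as a further term, the members' log2 fold changes ran from -0.07 to 0.16 and 5 of 9 were above 0.

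The 12 skeletal muscle genes summed to 124 to 3396 TPM in P278KY (median 854) and 23.3 to 1315 TPM in wt (median 78.3). All 12 were fitted higher in P278KY (median log2 fold change 2.71), and 6 had an unadjusted p under 0.05, against 736 of all 17995 genes tested. Of the 12, 0 were called by edgeR and 1 by DESeq2, and none was at 0 in any library. Tnnt1 had the smallest p, at 3.51 ± 0.90 (SE; edgeR adjusted p = 1.00). With the muscle list as a further term, the members' log2 fold changes ran from -0.23 to 0.17, 2 of 9 were above 0, and none was called. The part of these tissues in the members' values was not tested further.

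**Figure D5:**
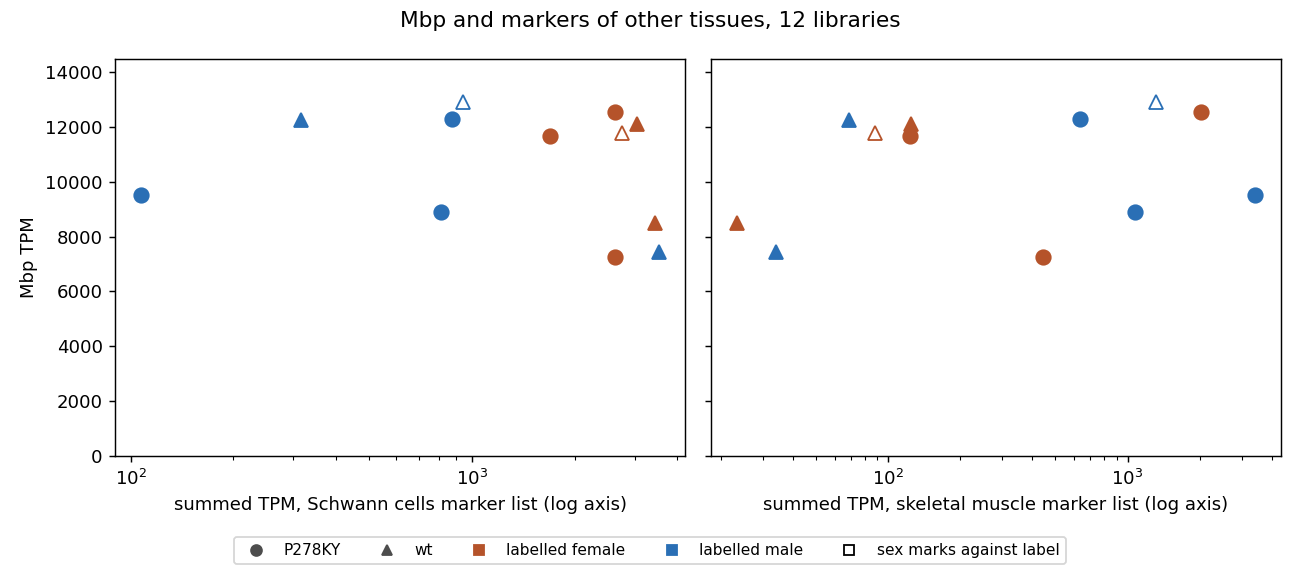
Mbp TPM (vertical axis from 0) against the summed TPM of the Schwann cell list (left) and of the skeletal muscle list (right), on log axes, in 6 P278KY (circles) and 6 wt libraries (triangles). Mbp is near its highest at both low and high Schwann cell sums.

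For the other marker lists, summed levels overlapped between genotypes and 0 genes were called by edgeR or DESeq2. Neuron genes summed to 3378.5 to 3848 TPM in P278KY (median 3729) and 3337 to 4337 TPM in wt (median 4194). That overlap came from the library labelled male wt 19 alone, at 3337 TPM. Every other wt library lay above the highest P278KY sum. Of the neuron genes 5 of 12 were fitted higher, and Nefm alone had an unadjusted p under 0.05 in edgeR (log2 fold change -0.25 ± 0.09). Their median r with the myelin genes was -0.58. Astrocyte genes summed to 2802 to 3778 TPM in P278KY and 3011.5 to 3658 TPM in wt (5 of 10 fitted higher; median r 0.35). Microglia genes summed to 179.6 to 267 TPM in P278KY and 172 to 245 TPM in wt (9 of 10 fitted higher; median r 0.52). Endothelial genes summed to 258 to 310.3 TPM in P278KY and 240.1 to 308 TPM in wt (6 of 10 fitted higher; median r 0.16). Genes of meninges and fibroblasts summed to 724 to 1364 TPM in P278KY and 507 to 2095 TPM in wt (7 of 10 fitted higher; median r 0.18). Dorsal root ganglion genes summed to 118 to 151 TPM in P278KY and 120.2 to 405 TPM in wt, with 9 of 9 fitted lower, 2 at an unadjusted p under 0.05 and a median r of 0.00. Most of the P278KY sum was Tac1 and Calca, at means of 85.7 and 44.4 TPM (89.4 and 65.1 TPM in wt). In P278KY, Scn11a, Avil and Prdm12 averaged 0.23, 0.50 and 0.05 TPM, so the sum is not a measure of ganglion transcripts. The highest ganglion sum was in the library labelled female wt 14, where Scn10a, a sodium channel of pain fibres, stood at 27.8 TPM against at most 0.64 TPM elsewhere. The genes with an unadjusted p under 0.05 in edgeR were Scn10a and Prdm12. In wt they averaged 4.90 ± 11.2 and 1.26 ± 2.72 TPM (SD, n = 6), a spread wider than the mean. The fold changes of ganglion genes were not read without that library.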

How the data were processed

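Poly(A) RNA of whole cord was made into KAPA stranded libraries and sequenced in pairs, per the labels' protocols. The tools, per the submitters' processing notes, included Bowtie2 2.2.0 and RSEM 1.2.12, whose steps are not described there. The sources used here give no build, annotation or strand setting. The deposited expected count is the authors' estimated number of fragments per gene and need not be whole. The deposited TPM was scaled by the authors to length and library. The deposited length and effective length are the authors' mean over transcripts weighted by abundance, per the file headers.

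Expected counts were rounded. edgeR 4.0.16 (R 4.3.3) with TMM, filterByExpr over the 4 groups and a robust quasi-likelihood fit over 12 libraries, labelled sex as a term, gave genotype effects, adjusted by Benjamini-Hochberg over all 17995 genes (threshold 0.05). The interaction used 1 mean per group. Each standard error is the log2 fold change divided by the root of its F statistic. limma 3.58.1 was run on log2 length for genes whose length varied. CPM uses TMM-adjusted totals, and log2 CPM a prior count of 2. Gars was tested by permutation over 924 splits. Nothing in the labels says whether mice shared litters, so p-values measure the spread between these mice.

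The members, lists and alternatives were chosen with earlier results of these data known. Named genes are the 9 members, per list the 2 smallest p where none passed (for marker lists also the most abundant), and the 10 highest and 5 lowest r with predicted genes passed over. Some of these are not reported here, and others are marked. Zfp24 and Lhfpl3 were not matched by symbol, and Tppp2 and Mrgprd did not pass the count filter. Symbols that occur more than once in the files (155) were resolved by Ensembl identifier. Alternatives were RLE factors, library totals, a strict filter (6 libraries with CPM over 1) or none, limma-voom, DESeq2 1.42.0, limma on log2(TPM + 1) and log2(TPM + 0.1), Schwann cell or muscle genes as a term, no sex term, effective length, and libraries left out. The fits were tested on simulated data.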

Additional observations from a re-analysis of the deposited data

Results flagged for a closer look

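Among 28 groups of 6 libraries, 2 held a library far from the other 5 of its genotype, where chance marks about 1 group in 20. The weighted length of Mog was 1697.65 bases in female wt 2, a gap of 0.754 of the wt range. The weighted length of Mobp was 2636.1 bases in the library labelled female wt 14, a gap of 0.653 of the wt range.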

How the results depend on the processing

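Under every setting run, 0 of the 9 genes were called for genotype or interaction, so what varied was the size and sign of differences that were not called. For genotype, 22 of 126 values changed sign besides those with a single library left out. On log2(TPM + 1), with or without the filter, Mobp was -0.0117 and Cnp -0.0228, and on log2(TPM + 0.1) Mobp was -0.0117 and Cnp -0.0229. With the Schwann cell term Mobp was -0.0263, Cnp -0.0127 and Opalin -0.0131. With the muscle term Mog was -0.13, Mag -0.0972, Mobp -0.228, Cnp -0.128, Mal -0.0695 and Myrf -0.0968. Without both libraries of discordant sex marks Mbp was 0.0852 and Opalin -0.21. With the other myelin genes as a term, chosen after seeing the data, Mog was -0.0163, Mobp -0.0465, Cnp -0.046, Mal -0.0027 and Opalin -0.0136. The cause of these changes was not tested.

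With 1 library left out in turn, the genotype log2 fold change ran from -0.123 to 0.0665 for Mbp, -0.0298 to 0.172 for Mog, -0.0089 to 0.158 for Mag, -0.0786 to 0.145 for Mobp, -0.0529 to 0.0905 for Cnp, -0.103 to 0.58 for Opalin and -0.0208 to 0.128 for Myrf. Male wt 6, female P278KY 7, female P278KY 4, male P278KY 13 and, for Opalin, female wt 1 and the library labelled male wt 19 set these ends. The interaction ran from -0.0544 to 0.35 for Mbp, -0.0311 to 0.396 for Mog, -0.0263 to 0.257 for Cnp, -1.44 to 0.139 for Opalin and -0.169 to 0.137 for Myrf. On log2(TPM + 1) and log2(TPM + 0.1) the interaction of Mbp was -0.0041, and without both discordant libraries that of Cnp was -0.0019. By effective length Mobp was -0.00082, Cnp -0.0029 and Mal -0.00065 on the log2 scale, and with 1 library left out the length of Mobp ran from -9.88e-05 to 0.0049 and that of Cnp from -0.0033 to 0.0025.

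Over all genes, edgeR's 1 genotype call became 0 with the strict filter, 33 with DESeq2, 2 with the muscle term, 2 with no sex term and 0 without both discordant libraries, and ran from 1 to 3 with 1 library left out (3 without female wt 2). Without the library labelled female wt 14 the 1 call was not Fgf21. The 0 interaction calls became 3 with no filter, 279 with DESeq2, 2 on log2(TPM + 1) with no filter, 1 with the Schwann cell term and 5 without both discordant libraries, and ran from 0 to 3 with 1 left out (3 without the library labelled female wt 14, 1 without female wt 2). The 1 length call became 0 without both discordant libraries and ran from 1 to 2 with 1 left out (2 without male P278KY 13). No paired analysis was possible because the 4 groups share no mouse number. With 6 libraries a genotype, intervals on the members of 0.29 to 1.01 on either side (log2) limit what could be seen.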
